A study of Arabidopsis thaliana with 12 samples.

Results

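Transcripts of 7 tubulin genes were followed in the shoots of Arabidopsis thaliana with and without heat, in plants lacking 2 organelle DNA maintenance genes and in the wild type. The genes were taken by name: every Affymetrix probe set assigned to a single gene whose symbol is TUA or TUB followed by a number. This gave 7 probe sets for 7 genes, among 22746 probe sets without controls, of which 13513 were assigned to 1 gene. The α-tubulins were TUA1 (AT1G64740) and TUA6 (AT4G14960), and the β-tubulins were TUB1 (AT1G75780), TUB5 (AT1G20010), TUB6 (AT5G12250), TUB7 (AT2G29550) and TUB9 (AT4G20890). RefSeq lists 15 α- and β-tubulin genes for this species. A further 2 of them shared 1 probe set, which is given separately, and 6 were not analysed here.

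The 12 arrays held RNA from above-ground parts of plants aged 8 weeks. The groups were the heated msh1/msh1-recA3/recA3 double mutant (n = 3), the heated wild type (n = 3), the untreated double mutant (n = 4) and the untreated wild type (n = 2). Both genotypes have the Col-0 background, and all plants grew at 24 °C, with a daylength of 8 h at first and 16 h later. Heat was given at 37 °C for 2 h by the design text and for about 24 h by the treatment protocol, so its length is unknown. MSH1 and RECA3 are nuclear genes whose products keep organelle genomes from recombining at short repeats. The titles call the arrays of a group biological replicates, without saying how many plants went into each. The annotation names no probe set for MSH1 or for RECA3, and the mutated genes themselves were not analysed here.

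Microtubules are hollow polymers of α-β tubulin dimers, in which the β subunit hydrolyses its GTP after assembly and so sets the dynamics of the polymer. In growing plant cells a cortical array of microtubules guides cellulose synthase complexes along the plasma membrane, and in dividing cells microtubules build the preprophase band, the spindle and the phragmoplast that lays down the new wall. Plants carry several genes for each subunit, which encode very similar proteins and differ in where they are expressed. In Arabidopsis TUA1 is known for its expression in pollen, TUB9 is likewise linked to pollen, TUB1 to roots, and TUA6 and TUB6 are commonly fused to fluorescent proteins to image microtubules in living cells.

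All values are log2 signals made by the authors with RMA, on which a difference of 1 is a doubling. Probe sets bind their targets with different strength, so levels were compared between groups for 1 gene and never between genes. Each of the 7 probe sets bears the plain suffix of probes designed for a single transcript, but cross-binding among tubulin transcripts was not tested. The dimmest tubulin value on any array was 4.26 for TUB1, and the lower quartiles of the arrays ran from 3.67 to 3.79. A fall of a transcript in whole shoots can come from fewer cells of a type or from less RNA per cell, which cannot be told apart here.

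On the second principal component, which held 10.2% of the variance, some double mutant arrays stood apart from the rest of their group. Heated double mutant replicate 3 scored 8.73, between the other heated double mutants (-22.5 and -26.8) and the heated wild type (13.5 to 16.3). Untreated double mutant replicates 1 and 2 scored -2.95 and -0.96, against -22.9 and -30.9 for replicates 3 and 4. Results that involve the double mutant are therefore also given without these arrays. The small heat shock protein gene ATHSP22.0, a check of the heat label, lay between 12.84 and 13.03 on every heated array and between 3.74 and 3.89 on every untreated one.

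**Figure D1:**
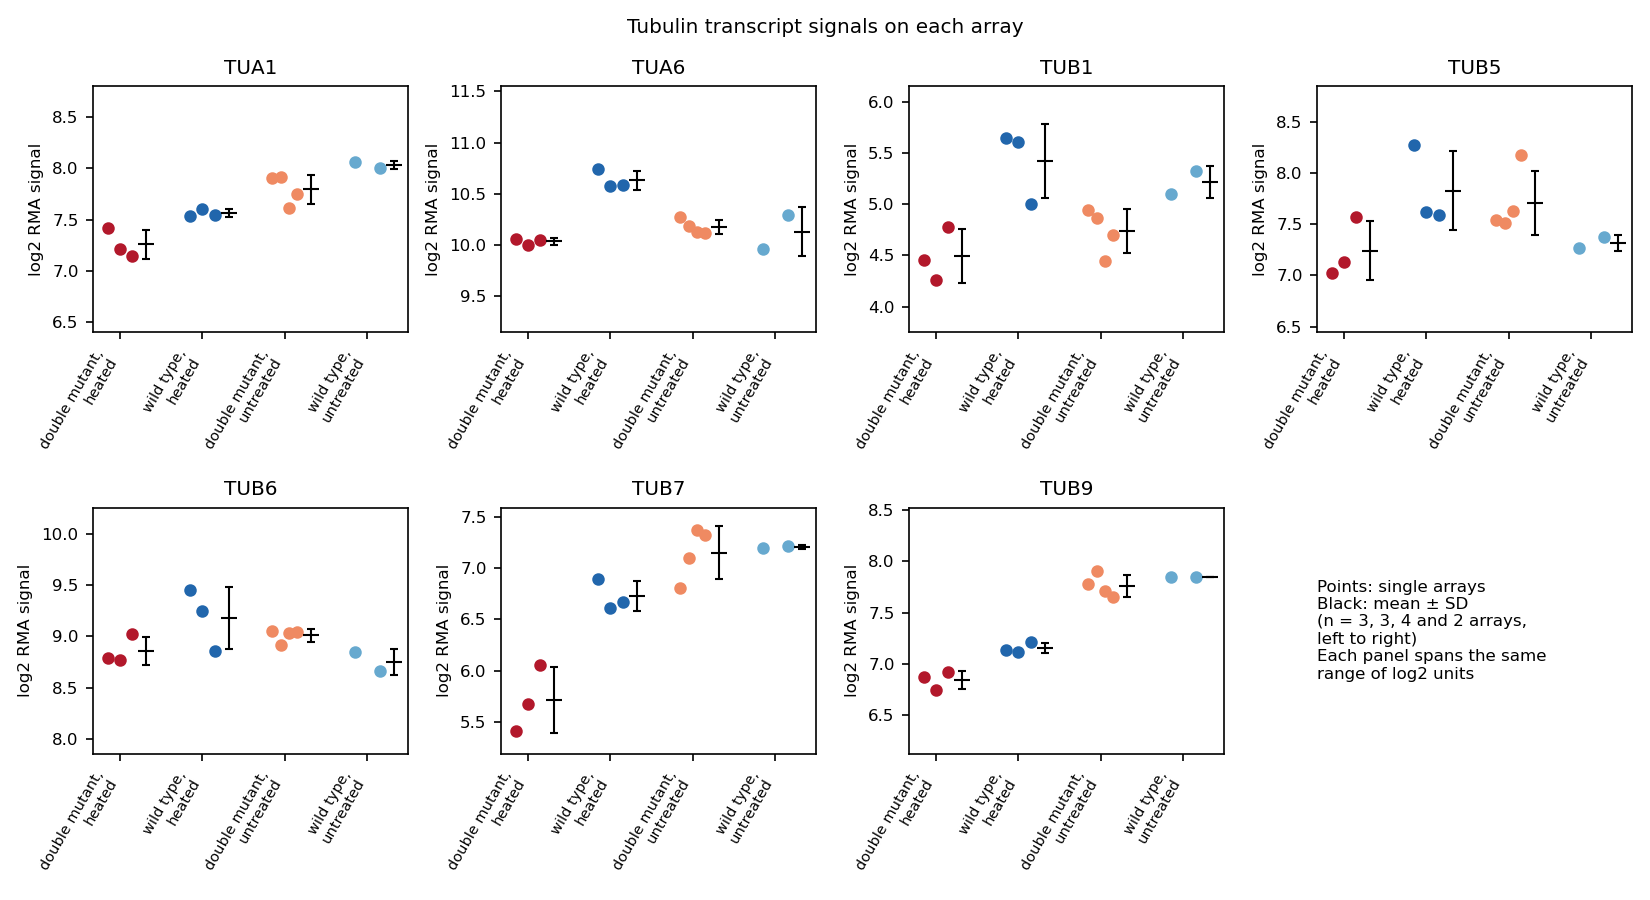
Log2 RMA signal (vertical axis) of each tubulin on every array, by group (horizontal axis), with points for arrays and black bars for the mean ± SD (n = 3, 3, 4 and 2 from left to right). TUB7 and TUB9 lie lower in both heated groups, TUB7 lowest in the heated double mutant (5.41 to 6.06), and TUA6 lies highest in the heated wild type (10.57 to 10.74).

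TUB7 had signals of 5.41, 5.67 and 6.06 in the heated double mutant, 6.89, 6.61 and 6.67 in the heated wild type, 6.80, 7.10, 7.37 and 7.32 in the untreated double mutant, and 7.19 and 7.22 in the untreated wild type. The heated double mutant lay below every other array, and within it the highest value was that of replicate 3, the array that stood nearest to the wild type overall. TUB9 had 6.87, 6.75 and 6.92 in the heated double mutant, 7.13, 7.12 and 7.22 in the heated wild type, 7.78, 7.90, 7.71 and 7.65 in the untreated double mutant, and 7.85 and 7.85 in the untreated wild type. Its heated arrays all lay below its untreated arrays, and the heated double mutant lay below the heated wild type.

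TUA6 had signals of 10.06, 9.9997 and 10.05 in the heated double mutant, 10.74, 10.57 and 10.59 in the heated wild type, 10.27, 10.19, 10.13 and 10.12 in the untreated double mutant, and 9.97 and 10.30 in the untreated wild type. The heated wild type stood above all other arrays, which overlapped apart from the separation of heated and untreated double mutants. TUA1 had 7.42, 7.21 and 7.15 in the heated double mutant, 7.54, 7.60 and 7.54 in the heated wild type, 7.90, 7.91, 7.61 and 7.75 in the untreated double mutant, and 8.06 and 8.00 in the untreated wild type. The 4 groups of TUA1 did not overlap at any step.

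The other 3 members were less steady between replicates. TUB1 ranged from 4.26 to 4.78 in the heated double mutant, from 5.00025 to 5.65 in the heated wild type, from 4.45 to 4.94 in the untreated double mutant and from 5.1006 to 5.32 in the untreated wild type, so every double mutant array lay below every wild-type array. TUB5 ranged from 7.02 to 7.57 in the heated double mutant, from 7.59 to 8.27 in the heated wild type, from 7.51 to 8.17 in the untreated double mutant and from 7.26 to 7.37 in the untreated wild type. Its highest values were single arrays of the heated wild type and the untreated double mutant. TUB6 ranged from 8.77 to 9.02 in the heated double mutant, from 8.85 to 9.45 in the heated wild type, from 8.92 to 9.05 in the untreated double mutant and from 8.66 to 8.84 in the untreated wild type, and the heated groups overlapped.

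In the double mutant, where 3 heated arrays were set against 4 without heat, 3 of the 7 tubulins fell with heat and none rose. TUB7 averaged 5.71 ± 0.32 in heated and 7.15 ± 0.26 in untreated plants (SD, n = 3 and 4), a log2 difference of -1.44 ± 0.16 (SE), or a signal 2.71-fold lower. TUB9 averaged 6.85 ± 0.09 in heated and 7.76 ± 0.11 in untreated plants (SD, n = 3 and 4) and fell by 0.92 ± 0.08 (SE), 1.89-fold. The pollen-linked α-tubulin TUA1 averaged 7.26 ± 0.14 in heated and 7.80 ± 0.14 in untreated plants (SD, n = 3 and 4) and fell by 0.54 ± 0.09 (SE), 1.45-fold. In limma with adjustment over all probe sets these changes had adjusted p = 4.84e-05, 5.93e-06 and 0.00107. Of all probe sets 34% were called in this comparison, 20.2% as lower and 13.8% as higher. That balance depended on the scaling: 4585 were lower and 3140 higher as deposited, but 3264 lower and 6385 higher with arrays centred on 4 reference genes. It kept its direction without AT2G28390 among those genes (4752 lower and 2508 higher) and after quantile normalization between arrays (4237 lower and 3397 higher). TUB7, TUB9 and TUA1 passed as lower in each of these settings.

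The remaining 4 tubulins had negative estimates in the heated double mutant that did not pass the test. TUB5 stood at -0.47 (95% interval -0.92 to -0.01, adjusted p = 0.107) and TUB1 at -0.24 (-0.64 to 0.16, adjusted p = 0.344). TUB6 stood at -0.15 (-0.43 to 0.13, adjusted p = 0.407) and TUA6 at -0.14 (-0.34 to 0.06, adjusted p = 0.267). All 3 heated arrays of TUA6 nevertheless lay below all 4 untreated ones, and so did those of TUA1, TUB7 and TUB9. The groups were thus separate for 4 of 7 tubulins and for 38.3% of all probe sets. The median over the tubulins was -0.47, against 0.01 over all probe sets.

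Without heated double mutant replicate 3, the falls in the double mutant were -1.61 ± 0.16 for TUB7, -0.95 ± 0.09 for TUB9 and -0.48 ± 0.11 for TUA1 (SE), all still past the threshold. TUB5 then passed as well, at -0.63 ± 0.22 (SE, adjusted p = 0.0459). Without untreated replicates 1 and 2 the values were -1.63 ± 0.17 for TUB7, -0.84 ± 0.09 for TUB9 and -0.42 ± 0.11 for TUA1 (SE), again past the threshold. Without all 3 arrays TUB7 stood at -1.80 ± 0.13, TUB9 at -0.87 ± 0.10 and TUA1 at -0.37 ± 0.11 (SE), with adjusted p = 1.76e-05, 0.000287 and 0.0384, and TUB5 passed at -0.82 ± 0.24 (SE, adjusted p = 0.0318).

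**Figure D2:**
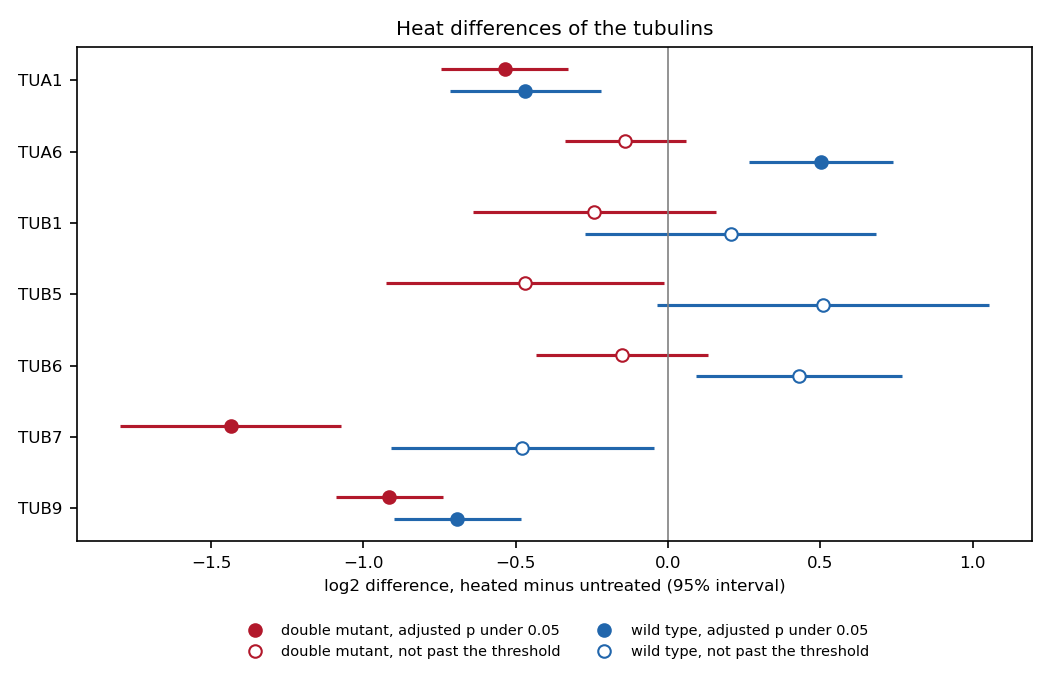
Log2 difference of heated minus untreated plants (horizontal axis) with its 95% interval for each tubulin (rows), in the double mutant and the wild type, filled where the adjusted p was under 0.05. In the double mutant all 7 estimates are negative, from -1.44 to -0.14, and in the wild type they run from -0.69 to 0.51.

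In the wild type, where 3 heated arrays were set against 2 without heat, the tubulins moved in both directions. TUB9 averaged 7.16 ± 0.05 in heated and 7.85 ± 0.00 in untreated plants (SD, n = 3 and 2) and fell by 0.69 ± 0.10 (SE), 1.61-fold, with adjusted p = 0.000273 in limma. TUA1 averaged 7.56 ± 0.04 in heated and 8.03 ± 0.04 in untreated plants (SD, n = 3 and 2) and fell by 0.47 ± 0.11 (SE), 1.38-fold, with adjusted p = 0.00967. TUA6 averaged 10.63 ± 0.09 in heated and 10.13 ± 0.24 in untreated plants (SD, n = 3 and 2) and rose by 0.50 ± 0.11 (SE, adjusted p = 0.00502). Thus 2 tubulins were called lower and 1 higher, where 26.5% of all probe sets were called, 12.8% as lower and 13.7% as higher. With centring on the reference genes other than AT2G28390, 5865 probe sets were lower and 1890 higher, against 2915 and 3112 as deposited.

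TUB7 averaged 6.73 ± 0.14 in heated and 7.20 ± 0.02 in untreated wild type (SD, n = 3 and 2), a difference of -0.48 ± 0.20 (SE) that missed the threshold (adjusted p = 0.101). TUB7 passed in only 3 of 22 alternative settings. A fit of only the compared groups gave -0.48 (adjusted p = 0.0226). Centring on reference genes other than AT2G28390, which was not planned, gave -0.70 (adjusted p = 0.0154). Leaving out the 3 double mutant arrays that stood apart, also not planned, gave -0.48 (adjusted p = 0.0153). Without those arrays the wild-type estimate was unchanged, and only its SE fell, from 0.20 to 0.12. TUB6 and TUB5 had positive estimates that also missed the threshold, 0.43 ± 0.15 and 0.51 ± 0.25 (SE), with adjusted p = 0.0613 and 0.164. TUB1 stood at 0.21 (95% interval -0.27 to 0.68, adjusted p = 0.56). The groups did not overlap for 6 of the 7 tubulins, all but TUB1, with TUA1, TUB7 and TUB9 lower and TUA6, TUB5 and TUB6 higher in all heated arrays. With only 2 untreated arrays such separation was common, since it held for 52.4% of all probe sets in one direction or the other.

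The untreated wild type decided part of these calls. Its 2 values of TUA6, 9.97 and 10.30, differed more than the replicates of that gene in any other group, and without replicate 1 the rise was 0.34 and no longer passed (adjusted p = 0.0723). TUA1 without the same array fell by 0.44 and did not pass either (adjusted p = 0.0703), while TUB9 passed without any 1 of the 12 arrays. The rise of TUA6 was also lost after quantile normalization between arrays, at 0.28 (adjusted p = 0.0571). Without heated wild-type replicate 3, the lowest of its group for TUB6, that gene passed as higher at 0.59 (adjusted p = 0.00614).

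Averaged over both genotypes, TUB7, TUB9 and TUA1 fell with heat. The mean differences were -0.96 ± 0.13 for TUB7, -0.80 ± 0.06 for TUB9 and -0.50 ± 0.07 for TUA1 (SE), with adjusted p = 0.000101, 1.25e-06 and 0.000198 in limma. Of all probe sets 41.5% were called in this comparison, and 22.5% as lower. No tubulin was called higher, against 19% of all probe sets, and 4 of the 7 had an unadjusted p under 0.05, as did 48.5% of all probe sets. With arrays centred on 4 reference genes 4501 probe sets were called lower and 4967 higher, and without AT2G28390 among those genes 7302 lower and 2841 higher, against 5121 and 4324 as deposited. Each of these 3 falls passed in all 21 alternatives run for this average.

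**Figure D3:**
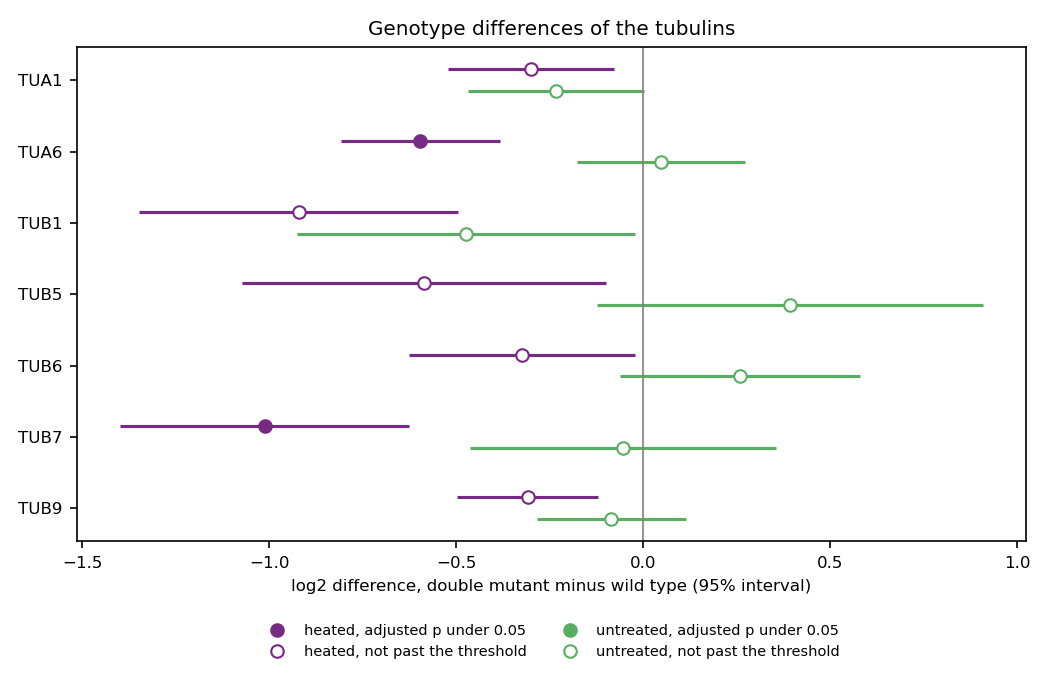
Log2 difference of the double mutant minus the wild type (horizontal axis) with its 95% interval for each tubulin (rows), in heated and in untreated plants, filled where the adjusted p was under 0.05. After heat all 7 estimates are negative, from -1.01 to -0.30, and without heat they lie on both sides of 0, from -0.47 to 0.39.

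After heat every tubulin had a lower mean in the double mutant than in the wild type (3 arrays each), and 2 of the 7 passed the test. TUB7 averaged 5.71 ± 0.32 in the heated double mutant and 6.73 ± 0.14 in the heated wild type (SD, n = 3 each), a log2 difference of -1.01 ± 0.18 (SE), 2.02-fold lower, with adjusted p = 0.0235 in limma. TUA6 averaged 10.04 ± 0.03 in the heated double mutant and 10.63 ± 0.09 in the heated wild type (SD, n = 3 each), a difference of -0.60 ± 0.10 (SE), 1.51-fold lower, with adjusted p = 0.0169. Of all probe sets 0.897% were called in this comparison, 0.4% as lower and 0.497% as higher. TUB1 came close to the threshold, with means of 4.50 ± 0.26 in the heated double mutant and 5.42 ± 0.36 in the heated wild type (SD, n = 3 each) and a difference of -0.92 ± 0.19 (SE, adjusted p = 0.054). Its signal was low, with only 37.7% to 56.2% of the probe sets of an array dimmer.

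The remaining tubulins did not pass between the heated genotypes. TUB5 stood at -0.59 (95% interval -1.07 to -0.10), TUB6 at -0.32 (-0.63 to -0.02), TUB9 at -0.31 (-0.50 to -0.12) and TUA1 at -0.30 (-0.52 to -0.08), with adjusted p = 0.29, 0.359, 0.139 and 0.23. For 6 of the 7 genes, all but TUB6, the 3 double mutant arrays lay below the 3 wild-type arrays, a direction seen for 8.08% of all probe sets, while 15.1% were separate in either direction. All 7 tubulins had an unadjusted p under 0.05, against 12.3% of all probe sets. The median difference was -0.59 over the tubulins and 0.00 over all probe sets. Tubulin transcripts share sequence, so the 7 probe sets may not be independent readings.

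Single arrays decided the calls between the heated genotypes. Without heated double mutant replicate 3, which stood nearest to the wild type, TUB7 differed by -1.18 ± 0.17 (adjusted p = 0.00461), TUA6 by -0.60 ± 0.11 (adjusted p = 0.0155) and TUB1 by -1.06 ± 0.20 (SE, adjusted p = 0.0167), so that all 3 passed. Calls over all probe sets grew in the same setting to 1061, of them 548 lower, against 204 and 91 with all arrays. Since the array was picked for its likeness to the wild type, more calls without it are no added evidence for a genotype difference. Without heated double mutant replicate 1 the values were -0.86 for TUB7 and -0.61 for TUA6, and neither passed (adjusted p = 0.0926 and 0.0627). Without heated double mutant replicate 2 they were -0.99 and -0.58 and did not pass (adjusted p = 0.102 and 0.0797), and without heated wild-type replicate 1 they were -0.93 and -0.54 (adjusted p = 0.131 and 0.0991). TUB7 also missed the threshold without heated wild-type replicate 2 or 3, at -1.07 and -1.04 (adjusted p = 0.0564 and 0.0694). In the same setting without replicate 3, TUB1 passed at -1.13 (adjusted p = 0.0279). A fit of the 6 heated arrays alone gave the same 2 differences with adjusted p = 0.104 for TUB7 and 0.0764 for TUA6.

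**Figure D4:**
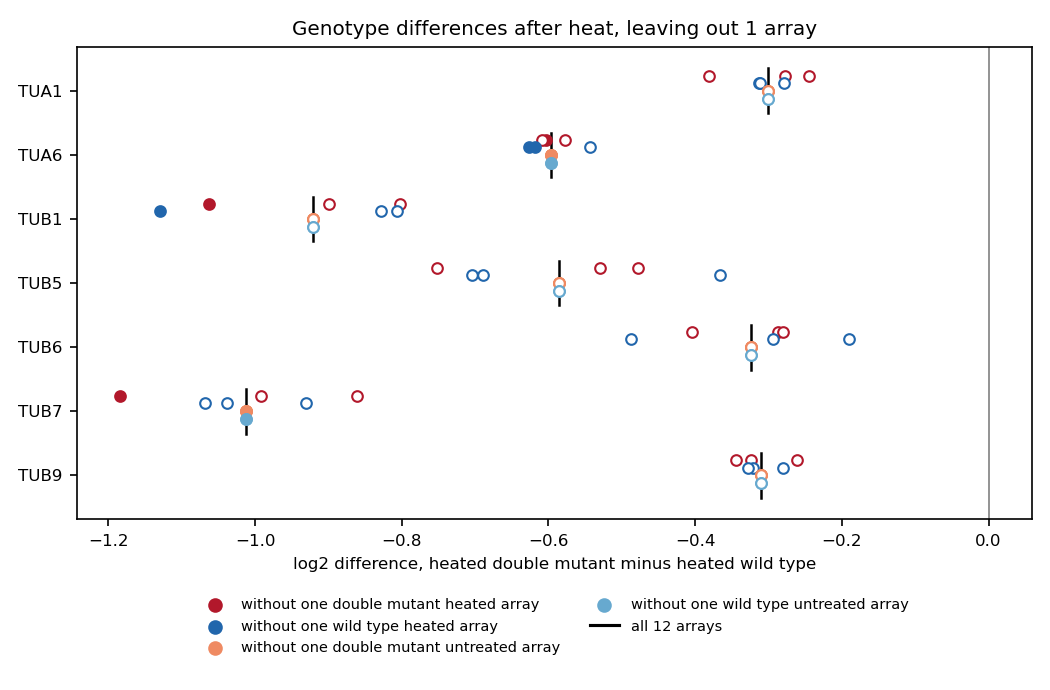
Log2 difference of the heated double mutant minus the heated wild type (horizontal axis) for each tubulin (rows), with all 12 arrays (black line) and without 1 array at a time (points, coloured by the group of the array left out and filled where the adjusted p was under 0.05). All points lie below 0, between -1.18 and -0.19, while the filled ones change with the array left out.

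Without heat the genotypes (4 double mutant against 2 wild-type arrays) showed no tubulin past the threshold in limma, where 1 of the 7 had an unadjusted p under 0.05, against 18.6% of all probe sets, and 2.69% of all probe sets were called, 2.23% as higher and 0.466% as lower. This split turned with arrays centred on the reference genes, where 162 were higher and 368 lower, against 507 and 106 as deposited. It shrank but kept its direction after quantile normalization (165 higher and 110 lower) and with centring without AT2G28390 (138 higher and 113 lower). The tubulin with the low unadjusted p was TUB1, which averaged 4.74 ± 0.22 in the untreated double mutant and 5.21 ± 0.16 in the untreated wild type (SD, n = 4 and 2), a difference of -0.47 ± 0.21 (SE, adjusted p = 0.247). TUB7 and TUB9, which fell with heat, stood at -0.05 (95% interval -0.46 to 0.36) and -0.09 (-0.28 to 0.11). The arrays of the genotypes were separate for 4 of the 7, with TUA1 and TUB1 lower and TUB5 and TUB6 higher in the double mutant, and for 29.5% of all probe sets. TUA6 stood at 0.05 (-0.18 to 0.27), TUA1 at -0.23 (-0.47 to 0.00), TUB5 at 0.39 (-0.12 to 0.91) and TUB6 at 0.26 (-0.06 to 0.58). Without untreated double mutant replicates 1 and 2 the estimates were -0.64 for TUB1, 0.14 for TUB7, -0.17 for TUB9 and -0.01 for TUA6, and none passed.

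The difference of the heat responses, double mutant minus wild type, asked directly whether heat acted differently on the tubulins of the 2 genotypes. No tubulin passed in limma, 4 of the 7 had an unadjusted p under 0.05, and 0.0747% of all probe sets were called, 0.0528% as lower and 0.022% as higher. The estimates were -0.96 ± 0.26 for TUB7 (adjusted p = 0.26), -0.98 ± 0.32 for TUB5 (adjusted p = 0.337), -0.64 ± 0.14 for TUA6 (adjusted p = 0.181) and -0.58 ± 0.20 (SE) for TUB6 (adjusted p = 0.353). TUB1 stood at -0.45 (95% interval -1.07 to 0.17) and TUB9 at -0.22 (-0.50 to 0.05). TUA1 stood at -0.07 (-0.39 to 0.26). Unadjusted p under 0.05 was reached by 10.4% of all probe sets. Without untreated double mutant replicates 1 and 2 and heated double mutant replicate 3 the estimate of TUB7 was -1.33 ± 0.18 (SE) and passed (adjusted p = 0.0229), a setting chosen after the data were seen. That setting leaves out the double mutant arrays nearest to the wild type on the second principal component. The call of TUB7 or TUA6 in one heat comparison and not in the other is therefore not shown to be a difference between genotypes with all 12 arrays.

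The order of the group means differed among the members. For TUB7 and TUB9 it ran from the untreated wild type through the untreated double mutant and the heated wild type to the heated double mutant, with the first step (0.05 and 0.09) within the SD of the groups and the later steps beyond it, though the arrays of TUB7 overlapped at the second step. The first step of TUA1, which had the same order, was 0.23 and exceeded the larger SD of 0.14. For TUA6 the heated wild type stood above the untreated double mutant by 0.46, and the steps below that, 0.05 and 0.09, were within the SD of 0.24. For TUB5 and TUB6 the heated wild type also ranked first, though by 0.12 and 0.17, within the SD of 0.38 and 0.30. TUB1 was ordered by genotype, with the untreated wild type 0.47 above the untreated double mutant, beyond the SD of 0.22, and its steps between heated and untreated plants of 1 genotype were within the SD of those groups.

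Profiles over the 12 arrays, each centred on its own mean, were compared by their root mean square difference, as a description. Among the members the closest were TUA1 and TUB9 (0.19), followed by TUA6 and TUB6 (0.20), and the farthest were TUA6 and TUB7 (0.62). Of 13512 other probe sets with 1 gene, those most like TUB7 were AT4G29020 (0.19), AT1G55360 (0.20) and AT2G44210 (0.20), which changed by -1.39, -1.18 and -1.28 with heat in the double mutant and by -0.76, -0.32 and -0.40 in the wild type. Those most like TUB9 were AT1G74840 (0.10), AT1G74910 (0.11) and rpl33 (0.11), the plastid gene of ribosomal protein L33. Those most like TUA6 were AT3G07210 (0.10), AT4G26555 (0.11) and AT2G44920 (0.12).

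The probe set shared by 2 α-tubulin genes showed no change past the threshold. It averaged 9.43 ± 0.15 in the heated double mutant and 9.64 ± 0.38 in the untreated double mutant (SD, n = 3 and 4), a difference of -0.21 ± 0.18 (SE, adjusted p = 0.42). In the wild type it averaged 9.68 ± 0.19 in heated and 9.33 ± 0.08 in untreated plants (SD, n = 3 and 2), a difference of 0.35 ± 0.22 (SE, adjusted p = 0.281).

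Among genes that work with microtubules, 13 were measured under a name of the lists used. In the heated double mutant 5 of the 13 fell and none rose, with a median of -0.34, and in the heated wild type 3 of the 13 fell and none rose, with a median of -0.28. The medians over all probe sets were 0.01 in both. Of all probe sets 34% and 26.5% were called in either direction, near the shares of the 13 genes called. As lower 20.2% and 12.8% were called, below the shares of the 13 genes that fell, a difference that was not tested. With arrays centred on 4 reference genes 5 fell and 2 rose in the double mutant and 4 fell in the wild type. Of the folding cofactors that assemble tubulin dimers, PFI (AT1G71440, cofactor E) fell by 0.99 ± 0.12 in the double mutant and by 1.05 ± 0.14 in the wild type (SE, adjusted p = 6.68e-05 and 0.000241). POR (AT4G39920, cofactor C) stood at -0.25 ± 0.15 and -0.47 ± 0.18 (SE) and did not pass. TON1B (AT3G55005), which helps to form the preprophase band and cortical arrays, fell by 0.74 ± 0.13 in the double mutant and 0.54 ± 0.15 in the wild type (SE, adjusted p = 0.000871 and 0.0207).

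Of 2 kinesins, motor proteins of microtubules, KINESIN-13A fell by 1.403 ± 0.13 in the double mutant and by 0.87 ± 0.16 in the wild type (SE, adjusted p = 1.14e-05 and 0.00184), while KINESIN-12B stood at -0.12 and -0.02 and did not pass. The group means of KINESIN-12B, 3.05 to 3.19, lay below the lower quartiles of the arrays, so a fall could hardly be seen. Of 8 microtubule-associated proteins 2 fell in the heated double mutant, ATMAP65-6, of a family that bundles microtubules, by 1.29 ± 0.24, and SP1L3, of the SPIRAL1 family that keeps growth directional, by 0.63 ± 0.13 (SE, adjusted p = 0.00176 and 0.00318). None of the 8 passed in the wild type, where the smallest p was that of AT3G23090, at -0.31 ± 0.17 (SE, adjusted p = 0.228). None of the 13 genes passed between the genotypes, with or without heat, or for the difference of the responses. The shares over all probe sets were 0.897% between heated genotypes, 2.69% between untreated ones and 0.0747% for the difference of the responses. No call among 13 genes is near these shares.

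**Figure D5:**
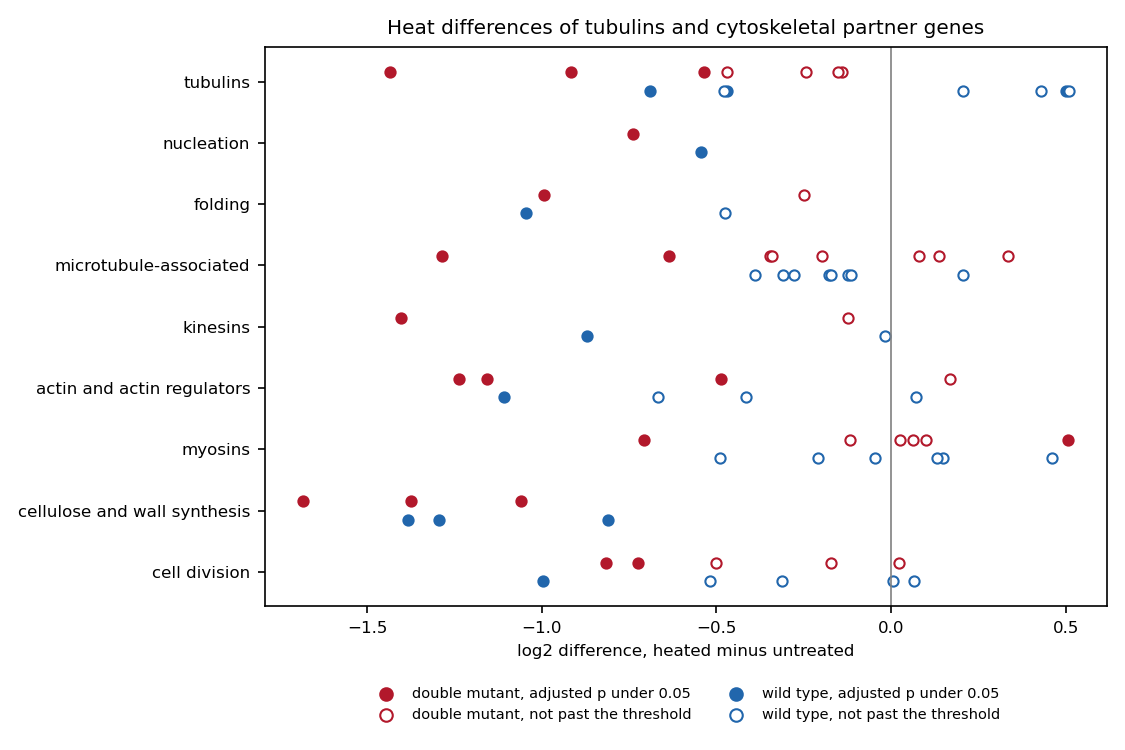
Log2 difference of heated minus untreated plants (horizontal axis) for each tubulin and each named gene of the partner lists (rows), in the double mutant and the wild type, filled where the adjusted p was under 0.05. The 3 genes of cellulose and wall synthesis lie between -1.68 and -0.81 in both genotypes, and the tubulins spread from -1.44 to 0.51.

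Other cytoskeletal and wall genes were lower in part. Of all probe sets 20.2% were called lower and 13.8% higher with heat in the double mutant, and 12.8% and 13.7% in the wild type. Of 4 genes of actin and its regulators, 3 fell in the heated double mutant and 1 in the heated wild type. CRK (AT4G01710), a subunit of the actin-nucleating ARP2/3 complex, fell by 1.16 ± 0.17 in the double mutant and 1.11 ± 0.20 in the wild type (SE, adjusted p = 0.000306 and 0.00191). PIR121, a subunit of the complex that activates ARP2/3, fell by 1.24 ± 0.24 in the double mutant (SE, adjusted p = 0.00194) and stood at -0.67 ± 0.29 (SE) in the wild type. With arrays centred on the reference genes 2 actin genes fell and 1 rose in the double mutant. Of 6 myosins, a list added from gene names after the files were read, VIIIB rose by 0.51 ± 0.16 and XI-I fell by 0.71 ± 0.20 (SE, adjusted p = 0.0312 and 0.0165) in the double mutant, and none passed in the wild type, where 0.46 ± 0.19 for VIIIB had the smallest p (SE, adjusted p = 0.108). VIIIB was near the floor: its means of 3.44 in the untreated double mutant and 3.40 in the untreated wild type lay below the lower quartiles of the arrays.

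All 3 measured genes of the cellulose and wall synthesis list fell with heat in both genotypes, under each of the 3 other scalings too, but none of them encodes a cellulose synthase catalytic subunit. COB (AT5G60920), the COBRA protein that orients cellulose deposition, fell by 1.37 ± 0.12 in the double mutant and 0.81 ± 0.15 in the wild type (SE, adjusted p = 7.58e-06 and 0.00181). CSLC04 (AT3G28180), which makes the xyloglucan backbone, fell by 1.68 ± 0.17 and 1.38 ± 0.20, and CSLD2 (AT5G16910) by 1.06 ± 0.17 and 1.29 ± 0.21 (SE), in the double mutant and the wild type. Of 5 cell division genes 2 fell in the heated double mutant and 1 in the heated wild type. As a background to both lists, 20.2% of all probe sets were called lower in the double mutant and 12.8% in the wild type. The mitotic kinase gene AUR1 fell by 0.73 ± 0.10 and 1.00 ± 0.12 (SE), and PRL, the replication factor MCM7, fell by 0.82 ± 0.16 in the double mutant and stood at -0.52 ± 0.19 (SE) in the wild type (adjusted p = 0.00229 and 0.0706).

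Markers of other organs were read beside the tubulins. The 4 pollen markers ANX1, ANX2, sks16 and sks18 had group means of 3.28 to 3.80, near or below the lower quartile of the arrays, and none passed with heat in either genotype. Their mean over the 4 genes ranged from 3.46 to 3.56 in the heated double mutant, 3.50 to 3.57 in the heated wild type, 3.37 to 3.51 in the untreated double mutant and 3.48 to 3.53 in the untreated wild type. These ranges overlap, and the part of pollen in the values of TUA1 and TUB9 was not tested. Of the 3 root markers, EXPA7 and EXPA18 had group means of 3.69 to 4.07. PYK10 (AT3G09260), a glucosidase abundant in roots, averaged 6.59 ± 0.18 in the heated double mutant and 8.32 ± 0.63 in the untreated double mutant (SD, n = 3 and 4), against 6.27 ± 0.29 in the heated and 6.60 ± 0.32 in the untreated wild type (SD, n = 3 and 2). The part of PYK10-expressing cells in the tubulin values was not tested. Of 2 trichome genes, the regulator SIM fell with heat in both genotypes, by 0.81 ± 0.14 in the double mutant and 0.84 ± 0.17 in the wild type (SE, adjusted p = 0.000982 and 0.00346), while TRY stood at 0.10 and -0.34 and did not pass (adjusted p = 0.747 and 0.353). TRY was lower in the untreated double mutant than in the untreated wild type, at a difference of -1.0008 (adjusted p = 0.0458), and the part of trichomes in the tubulin values was not tested either. The 4 green shoot markers averaged 12.08 to 12.40 on all arrays. Single members moved: LHCB4.1 fell by 0.23 with heat in the double mutant (adjusted p = 0.0173), and RCA rose by 0.32 with heat in the wild type and was 0.46 higher in the untreated double mutant than in the untreated wild type (adjusted p = 0.0312 and 0.0291). LHCB4.3 went the other way between the untreated genotypes, at -0.76, and did not pass. It averaged 8.70 ± 0.32 in the double mutant and 9.46 ± 0.40 in the wild type there (SD, n = 4 and 2). Their part in the tubulin values was not tested, and no flower marker of the list was measured.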

How the data were processed

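Expression was measured on 12 Affymetrix arrays of Arabidopsis shoots. The deposited values are log2 signals per probe set that the authors made with RMA from the affy package, per the submitters' processing notes, whose versions are not given in the sources used here. The genome build is not given there either. RMA quantile-normalizes arrays, so a shift of most transcripts would be removed. The deposited values still differed between arrays, with medians of 5.03 to 5.27. Upper quartiles were 7.14 and 7.13 in the untreated wild type and 7.19 to 7.27 on the other arrays. Quantile normalization of these values took calls between untreated genotypes from 613 to 275. Of 22810 rows, 64 controls were left out. Genes were named from the platform annotation and matched by gene number to RefSeq (TAIR10.1).

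Linear models in limma, holding 1 mean for each of the 4 groups, were fitted to 22746 probe sets over all 12 arrays, with 8 residual and 3.22 prior degrees of freedom. Tests were moderated, two-sided and adjusted by Benjamini-Hochberg over all probe sets at 0.05, for 6 comparisons that share arrays. Errors of differences are moderated SE. All tubulins were named, with 3 like profiles each for TUB7, TUB9 and TUA6, and from each list up to 2 rises and 2 falls per heat comparison, or else the smallest p. Members and lists were chosen with earlier results of these data known, and the lists hold few of their genes under a name. Same-numbered arrays had residual correlations of -0.35 to 0.27, with 3 of 15 above 0.1, so numbers were not taken to pair samples. The number of arrays limits precision. Alternatives are given below. The procedure was tested on simulated data. The tests used limma 3.58.1 under R 4.3.3. Tables were handled with pandas 2.3.3 and NumPy 2.4.6 under Python 3.11.15, and figures were drawn with matplotlib 3.10.9.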

Additional observations from a re-analysis of the deposited data

Results flagged for a closer look

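The heated and untreated arrays of TUA6 were separate in both genotypes, in opposite directions. In the double mutant each heated array lay below each untreated one (mean difference -0.141), and in the wild type each heated array lay above each untreated one (0.50). The difference itself, tested as an interaction in limma, was -0.64 ± 0.14 (SE) and did not pass (adjusted p = 0.181), nor did the value in the double mutant. With arrays centred on the reference genes the double mutant value was 0.0054. Heated and untreated arrays were separate, in either direction, for 38.3% of all probe sets in the double mutant and 52.4% in the wild type.

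TUB6 had 1 low array among the 4 untreated double mutants. Replicate 2 stood at 8.92, and the gap to the next array made up 0.838 of the range of the group, above Dixon's 95% critical value for a group of 4 samples. Chance flags about 1 in 20 groups, and 7 genes were checked. The whole group spanned only 8.92 to 9.05.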

How the results depend on the processing

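Of 11 tubulin calls, 7 held in every alternative other than a limit on size, and none changed sign. Held were TUB7, TUB9 and TUA1 with heat in the double mutant and in the average, and TUB9 in the wild type. With a log2 difference of at least 1 required, 1 tubulin was lower with heat in the double mutant, 0 were higher and 0 lower with heat in the wild type, 1 lower between heated genotypes and 0 lower in the average. In the wild type, 0 were higher after quantile normalization and with centring on reference genes other than AT2G28390, and 2 with array weights. Over all probe sets 2790, 1890 and 3473 were higher in these settings, against 3112 as reported. Leaving out 1 array gave 0 to 2 higher and 1 to 2 lower in the wild type, and 0 to 3 lower between heated genotypes. Lower calls over all probe sets then ran from 1852 to 3076 in the wild type and from 13 to 548 between heated genotypes. Higher calls in the wild type ran from 2060 to 3452. The replicate block left 1 lower between heated genotypes, TUB7, while TUA6 stood at -0.60 and missed the threshold (adjusted p = 0.0713), and fitting the compared groups alone left 0. Over all probe sets 36 were lower there with the block and 12 with that fit. In the average, centring on the reference genes made 1 higher, and leaving out 1 array 0 to 1. Over all probe sets 4967 were higher in the average with that centring and 3542 to 4373 without 1 array, against 4324 as reported. Without untreated double mutant replicates 1 and 2 and heated replicate 3, 1 tubulin passed for the difference of responses.

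Values that changed sign were all uncalled. TUA6 in the untreated genotypes was -0.10 with centring on the reference genes, -0.12 with quantile normalization, -0.047 with centring without AT2G28390, -0.0064 without the double mutant arrays that stood apart and -0.12 to 0.21 without 1 array. TUB7 there was 0.14 without those arrays and -0.128 to 0.061 without 1 array. TUA1 for the difference of responses was 0.14, 0.093 and 0.11 under these 3 scalings, 0.044 and 0.10 without the untreated arrays that stood apart and without all 3, and -0.147 to -0.011 without 1 array. TUB1 with heat in the wild type was -0.017 with centring without AT2G28390, and TUA6 in the double mutant 0.0054 with centring on all 4. The causes were not tested. Centring without AT2G28390 and leaving out all 3 arrays were chosen after the data were seen.

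Centring on the reference genes shifted the overall median by as much as 0.21, and centring without AT2G28390 with heat in the wild type by -0.22. AT2G28390 itself fell with heat in both genotypes, and of the other 3 reference genes AT4G26410 and AT4G34270 rose in the wild type, by 0.29 and 0.32 (adjusted p = 0.0431 and 0.0388). Calls over all probe sets ranged from 33 to 1462 between heated genotypes (204 reported), from 109 to 2516 between untreated ones (613), from 1 to 126 for the difference of responses (17), and from 3912 to 7755 with heat in the wild type (6027), without a size limit. With a size of at least 1 they were 2154 and 2228 with heat in the double mutant and the wild type and 2098 in the average. Between heated genotypes they were then 88, of them 34 lower.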
